A study of Homo sapiens with 6 samples.

Results

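The zinc finger genes of chromosome 19 were taken as the protein-coding genes on that chromosome whose name is ZNF followed by a number, with or without 1 letter. There were 243 of them among 60843 genes in the deposited table, and the 182 with a mean of at least 0.5 FPKM (a level of fragments scaled for gene length and library size) over 6 libraries are described here. RNA sequencing was done on SW872-S, a human liposarcoma cell line grown in DMEM with serum. One group of 3 libraries is labelled NC for TP53INP2, with no further detail, and the other group of 3, TP53INP2_OE, carried a plasmid that overexpresses TP53INP2, a gene whose protein takes part in autophagy. The labels give no promoter, dose or time for the plasmid and do not say whether libraries came from separate cultures, so p-values measure the spread between libraries, which may be technical.

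C2H2 zinc finger proteins bind DNA through a row of short modules, each of which holds a zinc ion between a pair of cysteines and a pair of histidines. Many of those encoded on chromosome 19 also carry a KRAB box, which recruits the corepressor TRIM28 and through it enzymes that place repressive marks on chromatin. They arose by repeated tandem duplication, lie in clusters of relatives, and are best known for silencing transposable elements.

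TP53INP2 itself had 10.6, 9.45 and 9.67 FPKM in NC, compared with 18.9, 23.4 and 27.1 FPKM in TP53INP2_OE. The groups did not overlap (log2 fold change 1.13, standard error 0.12, limma adjusted p = 0.00282; exact two-sided permutation p = 0.1, the smallest that 3 against 3 libraries can give). Between 16038062 and 17607612 reads were assigned to genes per library. Of 10 mesenchymal and liposarcoma markers 7 reached 0.5 FPKM, with VIM highest at 741 FPKM, while COL1A2, COL3A1 and THY1 did not. No leukocyte, neural or germ cell marker reached 0.5 FPKM, whereas all 4 endothelial markers did, with CDH5 highest at 30.04 FPKM, as did the epithelial keratins KRT8 and KRT18. The summed endothelial markers ranged from 37.0 to 41.4 FPKM in NC and from 34.1 to 35.7 FPKM in TP53INP2_OE. CDH5 made up most of that sum, with means of 32.3 and 27.8 FPKM. PECAM1 (3.70 and 3.96) and VWF (0.70 and 0.81) had higher means in TP53INP2_OE, and KDR had 2.44 and 2.33 FPKM. The summed epithelial markers ranged from 81.3 to 83.3 and from 63.7 to 75.8 FPKM. The part of these markers in the results below was not tested.

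The first finger of each of 6 genes is printed below, 5′ to 3′ in GENCODE 29 coding sequence, from its first cysteine codon to its last histidine codon, with the zinc-binding codons in capitals. The first 3 genes rose in TP53INP2_OE and the last 3 fell.
ZNF114: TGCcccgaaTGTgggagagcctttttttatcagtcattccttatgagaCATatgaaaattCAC
ZNF260: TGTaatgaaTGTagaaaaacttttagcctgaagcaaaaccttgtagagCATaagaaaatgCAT
ZNF761: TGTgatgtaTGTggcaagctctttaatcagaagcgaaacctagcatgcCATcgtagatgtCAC
ZNF428: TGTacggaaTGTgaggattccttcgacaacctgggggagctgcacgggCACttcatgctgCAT
ZNF787: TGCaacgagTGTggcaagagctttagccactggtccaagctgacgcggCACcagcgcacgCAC
ZNF865: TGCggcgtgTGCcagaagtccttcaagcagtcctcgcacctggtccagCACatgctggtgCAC
All 6 fingers are 63 bases long and keep the same spacing of the zinc-binding codons, but differ in base composition. GC content was 39.7% in ZNF114, 31.7% in ZNF260 and 44.4% in ZNF761, against 55.6% in ZNF428 and 61.9% in both ZNF787 and ZNF865. At the last base of the codon, where most changes leave the amino acid as it is, the GC share was 42.9%, 33.3% and 38.1% in the first 3 and 76.2%, 90.5% and 100% in the last 3. These genes were picked for this contrast after their values were seen, so they illustrate it and do not test it. Over the whole transcript, ZNF114 had a GC content of 48.1%, close to the median of 48.0% for all tested genes, and ZNF428 had 61.3%.

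Levels were low throughout the group. The median was 1.82 FPKM, against 8.84 FPKM for the 656 other protein-coding chromosome 19 genes that were tested and 2.88 FPKM for the 201 tested ZNF-numbered genes on other chromosomes. Of the 182 genes, 37 were below 1 FPKM, 130 between 1 and 5 FPKM, 15 at 5 FPKM or more and 5 at 10 FPKM or more. The median number of reads per library was 160, and the fewest reads behind any single value were 20. Of the 61 genes under the filter, 12 had no read in any library. Just inside it were ZNF571 (0.45 and 0.56 FPKM in NC and TP53INP2_OE), ZNF585A (0.44 and 0.60) and ZNF582 (0.49 and 0.56), and just outside were ZNF583 (0.46 and 0.51), ZNF846 (0.54 and 0.42) and ZNF565 (0.53 and 0.43). For 4 genes the NC mean alone was under 0.5 FPKM, so they entered through their TP53INP2_OE level.

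ZNF146 was the highest of the group. It encodes OZF, a protein made up almost entirely of fingers, and stood at 23.2, 24.5 and 24.4 FPKM in NC and 26.0, 27.7 and 28.3 FPKM in TP53INP2_OE (log2 fold change 0.18, standard error 0.04, limma adjusted p = 0.0223). ZNF114 came next, followed by ZNF358, ZNF787 and ZNF317. ZNF317 had NC values of 9.86, 9.93 and 9.67 FPKM beside 10.8, 10.2 and 10.2 FPKM in TP53INP2_OE, and its limma adjusted p of 0.218 missed the threshold at a log2 fold change of 0.07.

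In TP53INP2_OE, 17 of the 182 zinc finger genes rose and 13 fell, at a limma adjusted p below 0.05 on log2(FPKM + 1), a scale that understates the change of low genes. That is 9.34% and 7.14%, where over all 14791 tested genes 16.4% rose and 18.6% fell. Among the other chromosome 19 protein-coding genes 12 of 656 rose and 402 fell, or 1.83% and 61.3%, and among ZNF-numbered genes elsewhere 30 of 201 rose and 27 fell. The median log2 fold change was 0.09 for the chromosome 19 zinc finger genes, -0.29 for their chromosomal neighbours, 0.05 for the ZNF genes elsewhere and 0.003 for all tested genes. Values above 0 were found for 139 of the 182, or 76.4%, and for 10.4% of the other chromosome 19 genes. The share of values above 0 over all tested genes was 50.5%.

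Libraries of the groups were fully apart, with TP53INP2_OE higher, for 56 of the 182 genes and, with TP53INP2_OE lower, for 18. Over all tested genes these shares were 25.2% and 25.6%. On the log2(FPKM + 1) scale, the median deviation of the 182 genes from their own means came to -0.05, -0.03 and -0.04 for NC, with 0.02, 0.05 and 0.06 for TP53INP2_OE. For the other chromosome 19 genes it was 0.17, 0.15 and 0.11 in NC and -0.10, -0.21 and -0.12 in TP53INP2_OE. The zinc finger genes together took 0.231%, 0.236% and 0.236% of assigned reads in NC and 0.250%, 0.255% and 0.260% in TP53INP2_OE. In each of these 3 measures every TP53INP2_OE library lay on one side of every NC library.

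The number that passed differed by level and by test. Of the 80 genes of at least 2 FPKM 25 passed, and of the 102 below it 5 did. With limma's voom on the reads recovered from the FPKM values 37 of the 182 rose and 16 fell, or 20.3% and 8.79%, where over all tested genes 19.8% rose and 21.7% fell. The share that rose was thus near that of all genes with voom and below it on the log2(FPKM + 1) scale. With a fit of protein-coding genes alone 33 rose and 15 fell, beside 23.7% and 27.1% of all coding genes tested. With 1 library left out, 6 rose and 6 fell without NC replicate 1, 6 and 7 without NC replicate 2, and 12 and 11 without NC replicate 3. Leaving out TP53INP2_OE replicates 1, 2 and 3 gave 17 and 12, 9 and 8, and 8 and 12. Over all tested genes these 6 fits called from 9.87% to 14.9% higher and from 12.3% to 17.4% lower.

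**Figure D1:**
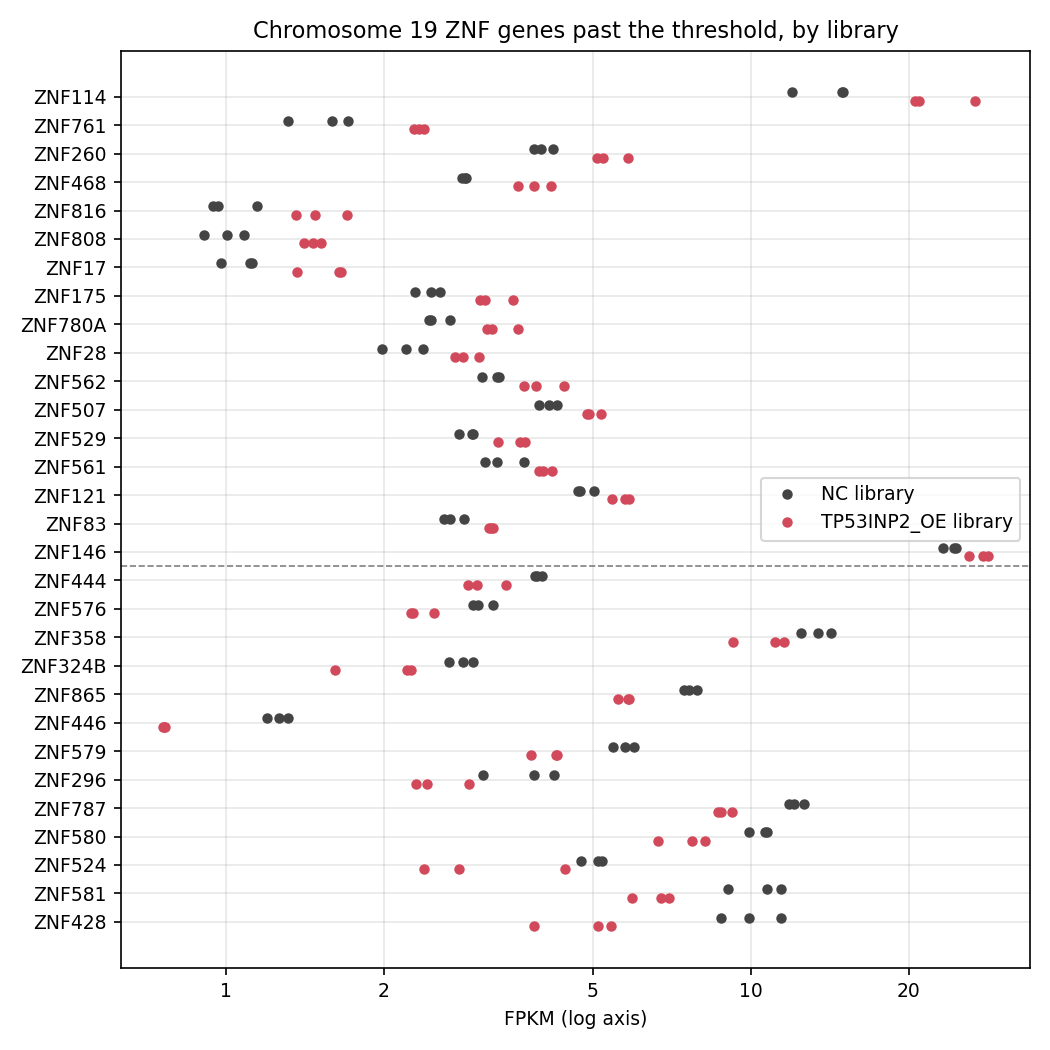
FPKM (log axis) of the 30 chromosome 19 zinc finger genes past the threshold, ordered by log2 fold change, with 1 point per library (3 NC in dark grey, 3 TP53INP2_OE in red). The 17 genes above the dashed line rose and the 13 below it fell, and ZNF114 and ZNF428 stand at the ends of the order.

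ZNF114 had the largest increase. This KRAB zinc finger gene (positions 48270081 to 48287608, plus strand, GRCh38) was at 11.99, 14.98 and 14.88 FPKM in NC and at 20.5, 20.9 and 26.7 FPKM in TP53INP2_OE. Every TP53INP2_OE library lay above every NC library, and the means stood in a ratio of 1.63 (log2 fold change 0.66, standard error 0.12, limma adjusted p = 0.00808). No value rested on fewer than 589 reads. An antisense gene, ZNF114-AS1, overlaps its start and was at 0.18 ± 0.07 and 0.47 ± 0.22 FPKM (SD, n = 3), below the filter; without strand its reads cannot be told apart from those of ZNF114 where they overlap.

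ZNF428 had the largest decrease (positions 43607224 to 43619629, minus strand). Its values were 11.4, 9.93 and 8.78 FPKM in NC and 5.41, 3.86 and 5.12 FPKM in TP53INP2_OE, again with no overlap between the groups. The ratio of means was 0.478 (log2 fold change -0.93, standard error 0.13, limma adjusted p = 0.00371). Only 1 finger was found in its coding sequence, which has 217 codons and no KRAB box match. SRRM5 overlaps it on the other strand at 0.11 ± 0.01 and 0.24 ± 0.09 FPKM (SD, n = 3), a small part of the level of ZNF428.

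The other increases were smaller. Most of them belonged to KRAB genes, but 151 of the 182 genes are KRAB genes. Of the KRAB genes 7.95% rose, and of the genes with no KRAB box match 16.1%, beside 16.4% of all tested genes. ZNF761 was at 1.31, 1.60 and 1.71 FPKM in NC and 2.38, 2.28 and 2.33 FPKM in TP53INP2_OE (log2 fold change 0.40, limma adjusted p = 0.0113). ZNF260, a factor that works with GATA4 in heart muscle cells, was at 3.98, 4.19 and 3.87 FPKM in NC and 5.08, 5.83 and 5.22 FPKM in TP53INP2_OE (log2 fold change 0.35, limma adjusted p = 0.00730). ZNF468 was at 2.81, 2.87 and 2.85 FPKM and 3.61, 4.17 and 3.85 FPKM (0.34). Its value is uncertain, because 99.2% of the stretches of 50 bases in its longest transcript also occur in transcripts of other annotated genes and it overlaps ZNF28 on the same strand. ZNF808, whose loss in people impairs formation of the pancreas, was at 1.00, 1.08 and 0.91 FPKM in NC and 1.52, 1.41 and 1.47 FPKM in TP53INP2_OE (0.30, limma adjusted p = 0.0290). It passed in no fit with 1 library left out. The share of such stretches was 18.5% for ZNF808 and 10.8% for ZNF761, and both overlap another gene on the same strand. ZNF175, also called OTK18 and known as an antiviral factor of macrophages, was at 2.56, 2.46 and 2.29 FPKM in NC and 3.05, 3.53 and 3.12 FPKM in TP53INP2_OE (0.30). In none of these 5 genes did the groups overlap. The log2 fold changes of the remaining named increases were 0.31 for ZNF816, 0.30 for ZNF17, 0.29 for ZNF780A, 0.28 for ZNF28, 0.24 for ZNF562 and 0.23 for ZNF507.

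Of the 13 genes that fell, 12 had no KRAB match. ZNF581 was at 11.4, 9.05 and 10.7 FPKM in NC and 6.73, 5.95 and 6.98 FPKM in TP53INP2_OE (log2 fold change -0.59, limma adjusted p = 0.00514). Its neighbour ZNF580 was at 10.7, 10.6 and 9.91 FPKM in NC and 7.71, 6.66 and 8.17 FPKM in TP53INP2_OE (-0.43, limma adjusted p = 0.00668). These 2 genes overlap each other and CCDC106 on the same strand, so their values are not independent. ZNF787 was at 12.1, 12.6 and 11.8 FPKM in NC and 9.20, 8.67 and 8.77 FPKM in TP53INP2_OE (-0.42, limma adjusted p = 0.00281). Those 2 genes and ZNF787 belong to the last group of neighbours on the chromosome. ZNF865, with 20 fingers, was at 7.90, 7.62 and 7.44 FPKM in NC and 5.83, 5.58 and 5.87 FPKM in TP53INP2_OE (-0.36, limma adjusted p = 0.00321). ZNF524 was at 5.11, 5.21 and 4.75 FPKM in NC and 4.42, 2.38 and 2.78 FPKM in TP53INP2_OE (-0.55), the last group spread widely. For ZNF296, ZNF579 and ZNF446 the log2 fold changes were -0.41, -0.40 and -0.36, and the highly expressed ZNF358 had 14.2, 12.5 and 13.4 FPKM in NC beside 11.6, 9.23 and 11.1 FPKM in TP53INP2_OE (-0.31, limma adjusted p = 0.0339). In each of these decreases every TP53INP2_OE library was below every NC library. Of the fits with 1 library left out, ZNF358 and ZNF524 passed in 1, ZNF296 in 2 and ZNF446 in 4. ZNF581, ZNF580, ZNF787, ZNF865 and ZNF579 passed in 6. The share of 50-base stretches found in other genes was 35.4% for ZNF446, 19.5% for ZNF358 and 16.1% for ZNF581. ZNF446 also overlaps ZNF324 on the same strand.

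A KRAB box was matched in the coding sequence of 151 of the 182 genes. Of those 151 genes 12 rose and 1, ZNF324B, fell, or 7.95% and 0.66%, where over all tested genes 16.4% rose and 18.6% fell. The median log2 fold change of the 151 was 0.11 and their median transcript GC content 41.9%. Of the 31 genes without a match 5 rose and 12 fell, or 16.1% and 38.7%, with a median of -0.12 and a median GC content of 58.7%. The number of fingers ranged from 0 to 31 with a median of 12. Among the 50 genes with fewer than 10 fingers 6 rose and 12 fell, or 12% and 24%. Among the 59 with 15 or more 6 rose and 1, ZNF865, fell, or 10.2% and 1.69%. Over the 182 genes, which share libraries, Spearman's rho with the log2 fold change was 0.30 for the number of fingers and -0.54 for the GC content of the transcript.

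The genes that passed divided by GC content. All 17 that rose had a transcript GC content below 50% and all 13 that fell were above it, a division chosen after the values were seen. Below 50%, 12 of 142 KRAB genes rose, or 8.45%, which is under the 16.4% of all tested genes. Of the 12 genes without a match there, 5 rose, or 41.7%. Among the 45 other chromosome 19 coding genes below 50%, 20% rose. At 50% and above, 12 of 19 genes without a match fell, or 63.2%, and 1 of 9 KRAB genes, or 11.1%. Of the 611 other chromosome 19 coding genes at 50% and above, 64.6% fell, and of all tested genes 18.6%. With voom the 37 increases and 16 decreases divided at the same value. The coding part showed the same contrast: the median GC share of the last codon base was 37.0% in the genes that rose and 79.3% in those that fell, where promoters were matched.

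Fold changes across the whole transcriptome moved with GC content in these libraries, so other protein-coding genes were set beside the zinc finger genes in 10 bins of GC content that hold equal numbers of coding genes, from bin 1 with the lowest to bin 10 with the highest. On the voom scale, which does not compress low levels, the 28 zinc finger genes in bin 1 had a median log2 fold change of 0.30, and the 1099 other coding genes there had 0.30. In bin 2 the medians were 0.25 for 34 zinc finger genes and 0.24 for 1093 others, and in bin 3 0.19 for 42 and 0.18 for 1085. In bin 10 they were -0.41 for 11 zinc finger genes and -0.39 for 1116 others. The medians lay further apart in bins 6, 7 and 9, which held 11, 2 and 7 zinc finger genes, at 0.08 against -0.05, -0.33 against -0.14 and -0.49 against -0.30. On the log2(FPKM + 1) scale the zinc finger medians were nearer 0 than those of other coding genes at low GC content, with 0.16 against 0.24 in bin 1 and 0.11 against 0.15 in bin 3. Fewer of them passed there too: in bin 1 3 of 28 rose, or 10.7%, against 684 of 1099 others, or 62.2%, and with voom 9 of 28 against 809 of 1099, or 32.1% against 73.6%. The median level in bin 1 was 1.44 FPKM for the zinc finger genes and 6.62 FPKM for the others, and its part in these shares was not tested.

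**Figure D2:**
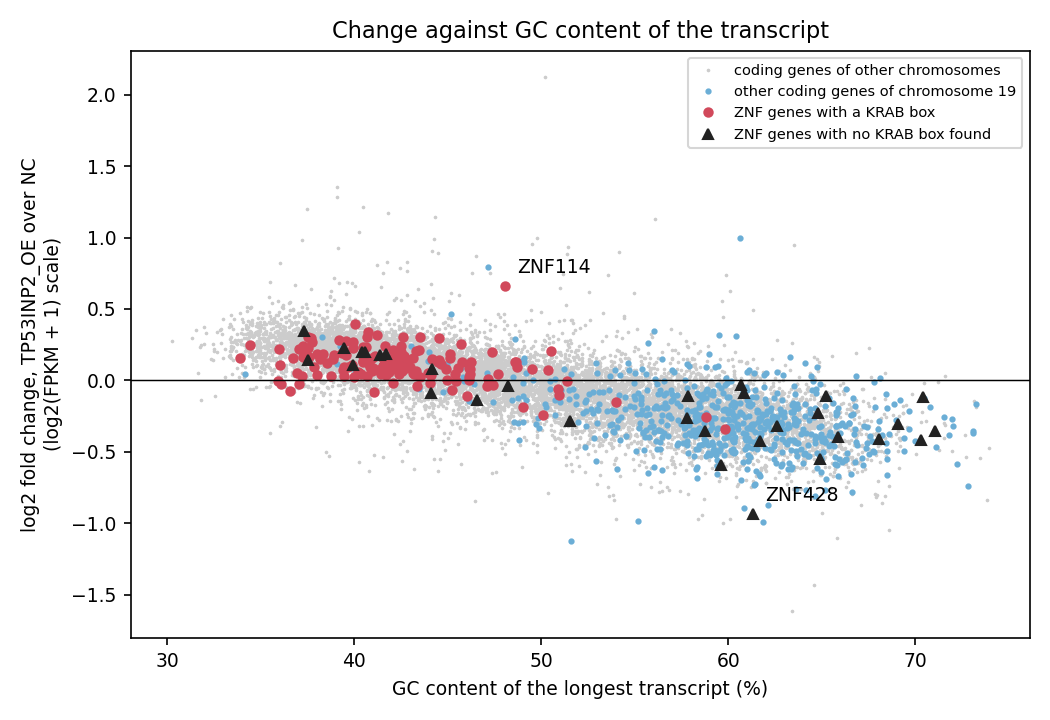
Log2 fold change (TP53INP2_OE over NC, log2(FPKM + 1) scale) against GC content of the longest transcript, 1 point per tested protein-coding gene. The zinc finger genes with a KRAB box (red) lie mostly at low GC content and above 0, and most other chromosome 19 genes (blue) at high GC content and below 0; ZNF114 lies above and ZNF428 below most genes of similar GC content.

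**Figure D3:**
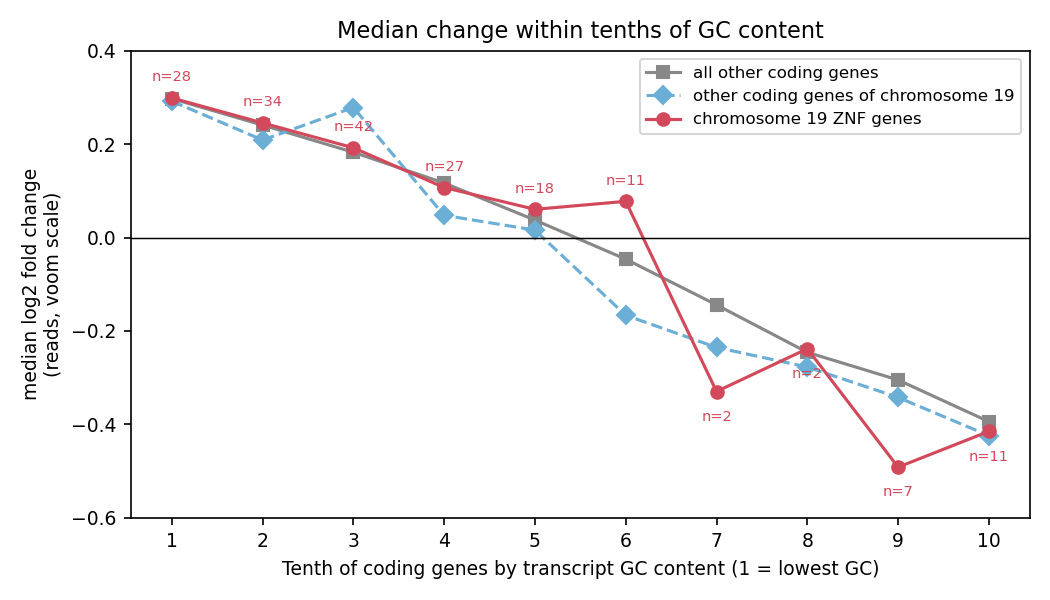
Median log2 fold change (reads, voom scale) in the 10 bins of protein-coding genes ordered by transcript GC content, with the number of zinc finger genes (red) beside each point. The zinc finger medians run from 0.30 in bin 1 to -0.41 in bin 10, beside 0.30 and -0.39 for all other coding genes (grey squares), and the dashed line joins the other chromosome 19 genes (blue).

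After trends with GC content and gene length had been subtracted library by library, 1 of the 182 genes rose and 1 fell. These were ZNF114 and ZNF428, where 4.53% of all tested genes rose and 5.88% fell after the same correction. Values above 0 were found for 76 of the 182, where 139 were above 0 before correction. After correction 7340 of 14548 tested genes were above 0. The median of the 182 became -0.02 and that of the other chromosome 19 genes -0.05, of which 19 rose and 111 fell. ZNF114 kept a log2 fold change of 0.67, standard error 0.13 (limma adjusted p = 0.0255), as large as before correction. ZNF428 had -0.65, standard error 0.10 (limma adjusted p = 0.0168). ZNF581 (-0.33, limma adjusted p = 0.0550) and ZNF576 (-0.21, limma adjusted p = 0.0585) came next and did not pass. ZNF787 and ZNF865 went to -0.07 and -0.01, ZNF260 and ZNF761 to 0.14 and 0.22, and ZNF146 to 0.03. A change that belongs to GC-poor or GC-rich genes would be removed by this correction whatever its source, and such sources cannot be told apart here.

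**Figure D4:**
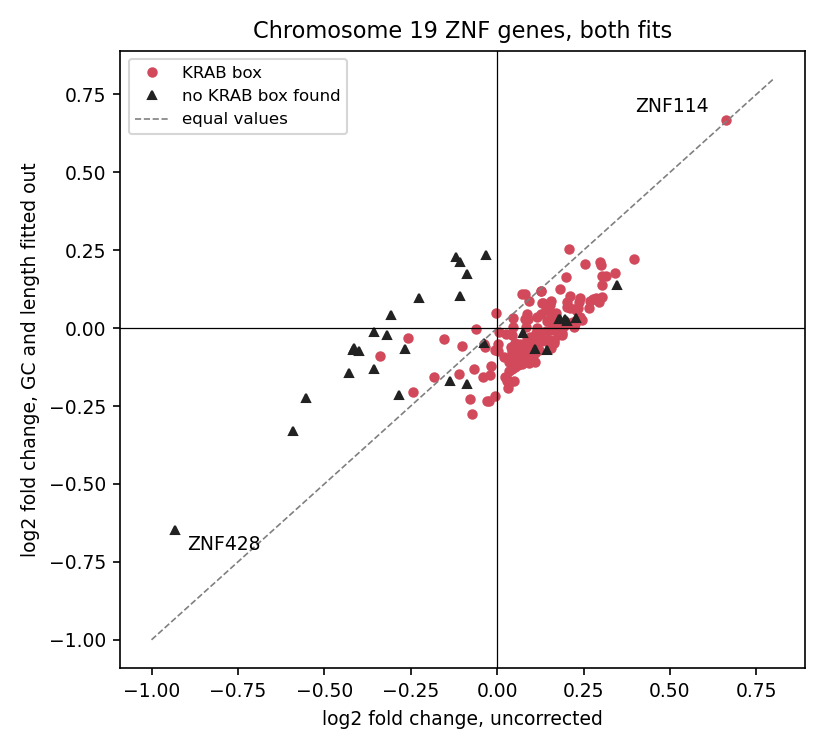
Log2 fold change of the 182 zinc finger genes before (horizontal) and after (vertical) the trends with GC content and gene length were subtracted, with KRAB genes in red and genes without a match in black. Most points lie between -0.25 and 0.25 on the vertical axis, with ZNF114 at 0.67 and ZNF428 at -0.65.

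Along the chromosome the 243 genes fell into 16 groups separated by gaps of more than 1000000 bases, of which 8 held at least 5 reported genes. The group from 51571283 to 53580269 held 33 reported genes, 32 of them KRAB genes. Of these 33 genes 7 rose, where over all tested genes 16.4% rose and 18.6% fell. All 33 log2 fold changes were above 0, from 0.003 to 0.40, with a median of 0.18 and a corrected median of 0.03. ZNF468 and ZNF761 had the lowest adjusted p-values there. Of all 154 reported zinc finger genes with a transcript GC content under 50%, 89.0% had a value above 0. The last group, from 55476617 to 58481230, held 49 reported genes with a higher median GC content of 46.6%. In it 1 rose and 9 fell, beside the same 16.4% and 18.6% of all tested genes. Its log2 fold changes ran from -0.59 to 0.30 with a median of 0.03. ZNF787 and ZNF865 had its lowest adjusted p-values.

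The group near the centromere, from 19668796 to 23945159, held 17 reported genes out of 36, with the lowest median GC content of the 8, 37.3%. With limma 0 of the 17 passed, 2 had an unadjusted p below 0.05 and 2 passed with voom, and 14 were above 0 with a median of 0.13. ZNF91, which silences SVA and LINE-1 retroelements and carries 31 fingers, was at 1.81, 1.91 and 1.83 FPKM in NC and 2.54, 2.14 and 2.31 FPKM in TP53INP2_OE. The groups did not overlap, and the value lay at the threshold (log2 fold change 0.22, limma adjusted p = 0.0503). ZNF100 had a log2 fold change of 0.25 (limma adjusted p = 0.0831). In the group from 36182276 to 37817300, 3 of 23 reported genes rose, beside 16.4% of all tested genes, with ZNF260 and ZNF146 leading. In the group from 43525497 to 45076587, 3 of 20 fell, ZNF428, ZNF296 and ZNF576, beside 18.6% of all tested genes. In the group from 7069703 to 9793180, 3 of 13 rose, among them ZNF121 (0.20) and ZNF562, and ZNF358 fell, beside the same 2 shares. Of the 11 reported genes from 11483427 to 12640098 and the 5 from 34677639 to 34964229, the lowest adjusted p-values belonged to ZNF441 (0.24, limma adjusted p = 0.0721), ZNF44 (0.20, 0.174), ZNF792 (0.21, 0.0887) and ZNF302 (0.17, 0.173), which missed the threshold. With limma 0 of either group passed, 1 in each group had an unadjusted p below 0.05, and with voom 1 of the 11 and 0 of the 5 passed.

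**Figure D5:**
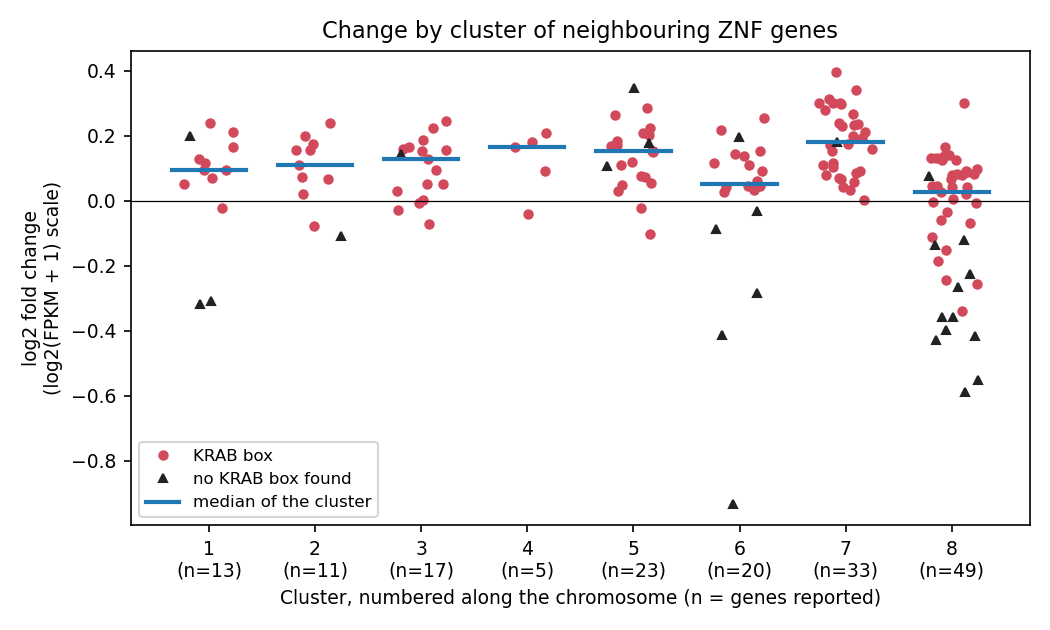
Log2 fold change (log2(FPKM + 1) scale) of the reported zinc finger genes in the 8 groups of neighbours with at least 5 of them, numbered along the chromosome, with the median of each as a blue bar. Group 7 lies wholly above 0, and the genes without a KRAB match (black) in groups 6 and 8 reach the lowest values.

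RefSeq promoters (GRCh38.p14, 250 bases before to 50 after the start) were matched for 162 of the 182 genes. The median GC content was 64.0% for the 15 matched genes that rose and 69.2% for the 12 that fell, where their transcripts had 40.7% and 61.5%. The dinucleotide CG occurred a median of 24 times in the first set and 30.5 times in the second, against 14 times in all 35116 promoters of the table. The letters TATAAA, searched on both strands, were found in 2.47% of the matched zinc finger promoters and in 11.5% of all promoters. The sets are unlike, since the matched one holds 1 promoter per gene past the filter. The whole set has neither limit. The promoter of a gene that rose and that of the gene that fell most are printed with CG in capitals, each 5′ to 3′ on the minus strand, to show how they differ in CG.
ZNF260 (chr19:36528222-36528521): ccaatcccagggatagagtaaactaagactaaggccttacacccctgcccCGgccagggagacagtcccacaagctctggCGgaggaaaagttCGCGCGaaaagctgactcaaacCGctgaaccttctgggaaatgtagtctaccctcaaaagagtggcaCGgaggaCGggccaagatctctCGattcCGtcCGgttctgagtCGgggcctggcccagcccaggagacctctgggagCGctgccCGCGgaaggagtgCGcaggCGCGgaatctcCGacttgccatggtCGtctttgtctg
ZNF428 (chr19:43619580-43619879): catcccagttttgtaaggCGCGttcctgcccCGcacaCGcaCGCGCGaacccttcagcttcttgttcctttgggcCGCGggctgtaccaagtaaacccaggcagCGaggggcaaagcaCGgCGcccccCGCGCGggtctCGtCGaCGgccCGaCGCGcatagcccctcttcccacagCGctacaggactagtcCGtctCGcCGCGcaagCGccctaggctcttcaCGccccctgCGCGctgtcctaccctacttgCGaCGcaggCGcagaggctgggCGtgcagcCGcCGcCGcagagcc
The first holds 20 CG and the second 37, numbers reached by 41.2% and 11.3% of all promoters, where the median of the matched zinc finger promoters was 21. This pair lies further apart than the medians of the sets that rose and fell, 24 and 30.5.

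Of 25 tested genes of the corepressor machinery with which KRAB zinc finger proteins work, 11 rose and 7 fell, or 44% and 28%, beside 16.4% and 18.6% of all tested genes and 19.8% and 23.0% of tested coding genes. Their median log2 fold change was 0.007. After the GC and length correction 3 rose and 2 fell, or 12% and 8%, beside 4.53% and 5.88% of all tested genes. TRIM28, the corepressor bound by the KRAB box and itself a chromosome 19 gene, was at 136, 132 and 133 FPKM in NC and 113, 106 and 109 FPKM in TP53INP2_OE (log2 fold change -0.29, limma adjusted p = 0.00321). Its corrected value was 0.01 (limma adjusted p = 0.802). MORC3, a nuclear ATPase of chromatin silencing, rose from 4.82 ± 0.11 to 7.33 ± 0.33 FPKM (0.52), and RESF1, which supports silencing by SETDB1, rose from 6.06 ± 0.46 to 8.74 ± 0.44 FPKM (0.46, SD, n = 3). UHRF1, which brings DNA methylation to newly copied DNA, fell from 52.2 ± 0.51 to 39.7 ± 1.80 FPKM (-0.39), and the histone methyltransferase gene EHMT2 fell by 0.42. MORC3 (0.31), RESF1 (0.26) and UHRF1 (-0.25) passed after correction as well, EHMT2 (-0.16) did not. HDAC1 had a log2 fold change of -0.002 (limma adjusted p = 0.977). ZNF274, named here outside the rule, recruits SETDB1 to the ends of zinc finger genes and was at 4.56 ± 0.37 and 4.54 ± 0.24 FPKM (limma adjusted p = 0.974).

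Relatedness of sequence bears on how far these values can be read gene by gene. In 35 of the 182 genes more than 10% of the 50-base stretches of the longest transcript occurred in transcripts of other genes. Of these 35 genes 5 rose and 4 fell, or 14.3% and 11.4%, with a median log2 fold change of 0.10. Of the other 147 genes 12 rose and 9 fell, or 8.16% and 6.12%, with a median of 0.09. Over all tested genes 16.4% rose and 18.6% fell. Overlap with another gene that has reads in the table was found for 109 of the 182, 56 of them on the same strand.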

How the data were processed

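The authors deposited FPKM values for 60843 genes in 6 libraries beside gene position, length and type, per the file headers. Bowtie 0.12.2 and 2 builds, GRCh38 and mm8, appear without roles in the submitters' processing notes; the counting step and its use of strand are not given in the sources used here. FPKM times gene length gave whole multiples of 1 read for 100% of values above 0 (tolerance 0.01), from which depth was taken. Groups and replicate numbers come from the sample titles. The 14791 genes whose mean reached 0.5 FPKM were compared as log2(FPKM + 1) with limma 3.58.1 in R 4.3.3 (empirical Bayes with trend, Benjamini-Hochberg over all tested genes, threshold 0.05). GC content came from the longest GENCODE 29 transcript, known for 98.4% of tested genes, and for the corrected fit natural splines of GC content and of log2 gene length (5 degrees of freedom apiece) were subtracted from each library. TMM-scaled recovered reads with voom served as an alternative. Divisions by GC content, finger number and shared sequence were chosen after values were seen. The limma fit was run on simulated data with known changes and no added GC trend. The correction was run on a simulated linear trend with GC content, which it removes by construction. No length trend was simulated, so these runs check the code alone. Fingers (cysteines 2 or 4 residues apart, 12 residues, histidines 3 to 5 apart) and KRAB boxes were searched in the longest GENCODE 29 coding sequence; a divergent box is missed. Members and lists were chosen with earlier results of these data known. The rule for naming took the 12 largest increases and 8 largest decreases past the threshold, the 5 highest levels, 3 genes on each side of the filter, 2 genes of lowest p per group of at least 5 neighbours and, from the corepressor list, the 4 largest changes past the threshold and the 2 highest levels. ZNF274, ZNF324B and the marker genes were named after their values were seen.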

Additional observations from a re-analysis of the deposited data

How the results depend on the processing

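For the 30 genes that passed, alternatives changed how many did so more than their direction. Over all 182 zinc finger genes, 139 had a log2 fold change above 0, and 76 did after GC and length correction. Of the 30 genes past the threshold, ZNF114 and ZNF428 kept their call in all 16 alternatives, with log2 fold changes from 0.55 to 0.73 and from -1.07 to -0.65 and adjusted p up to 0.0308 and 0.0345; 10 of the 30 kept it in every alternative they entered that left GC content uncorrected. After GC and length correction 1 zinc finger gene rose and 1 fell and the median turned to -0.0226, while 19 other chromosome 19 genes rose and 111 fell with a median of -0.0540. ZNF358 turned to 0.043, ZNF571 to -0.107, ZNF585A to -0.0068, ZNF582 to -0.0856, ZNF302 to -0.0407 and TRIM28 to 0.0135; this correction removes the trend by construction. The titles number the replicates and do not say whether the numbers pair the libraries. Same-numbered libraries had correlations of deviations of 0.0170, 0.0119 and 0.0107. Other pairs ranged from -0.0272 to 0.0150, the highest being NC replicate 3 with TP53INP2_OE replicate 2. Values this near 0 cannot show whether the libraries are paired. With a replicate block 10 zinc finger genes rose and 11 fell (13.4% and 16.3% of all genes did) and 6 other chromosome 19 genes rose; a replicate block with the GC and length correction gave 1 and 1 with a median of -0.0226, and 11 and 56 with a median of -0.0540 for the other genes, and reversed the same 6 genes to the same values. With no filter 9 zinc finger genes rose and 7 fell (5.18% and 6.05% of all genes did), and of the other genes 5 rose and their median was -0.160. With protein-coding genes only 33 zinc finger genes rose, and with voom 37. The zinc finger median was 0.153 with a pseudocount of 0.1, 0.149 with TPM and 0.161 with voom, where the other genes' median was -0.338. Leaving out 1 library in turn (a fit with fewer libraries) gave 6 to 17 zinc finger genes that rose and 6 to 12 that fell, with medians of 0.0867 to 0.109, and 4 to 8 other genes that rose and 301 to 367 that fell, with medians of -0.301 to -0.254. Beyond that, the cause of these shifts was not tested. HDAC1, near 0, turned to 0.0152 with TPM and 0.0328 with quantile normalization, and with 1 library left out ranged from -0.0212 to 0.0171; ZNF582 then ranged from -0.0101 to 0.136. The median read number per library was 160 over the 182 genes, and whether depth sets these counts was not tested.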
